A study of Mus musculus with 15 samples.

Results

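The glycolytic enzymes of pancreatic islets, together with the glucose transporter Slc2a1 and the oxygen-regulated transcription factor Hif1a, were described here by the histone marks at their promoters and loci. The 10 genes, Hif1a, Slc2a1, Hk2, Pfkl, Pfkp, Aldoa, Tpi1, Gapdh, Eno1 and Pkm, were chosen by name from the 22028 protein-coding genes of the annotation. The marks had been mapped by ChIP-seq, the sequencing of DNA recovered by chromatin immunoprecipitation, in islets isolated from 20-week-old male CBA mice, with about 600 pooled islets per experiment. From 10 weeks of age the mice were given regular chow (RD), high-fat diet (HFD), or the same high-fat diet containing O304 at 0.8 mg per g (HFD-O304). O304 is a small molecule that activates AMPK, the energy-sensing kinase. The antibodies recognised H3K27Ac, acetylation of lysine 27 of histone H3, found at active promoters and enhancers, or H3K27Me3, trimethylation of that lysine by Polycomb complexes, found at repressed genes. The 12 ChIP samples comprised 2 replicates for each of the 2 marks in each of the 3 diets, and 3 input samples were not used here.

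Glycolysis splits glucose into pyruvate in a chain of cytosolic reactions, beginning with uptake by a transporter and phosphorylation by a hexokinase. HIF-1α, encoded by Hif1a, accumulates when oxygen is low, pairs with ARNT and binds short DNA cores, read as ACGTG or GCGTG, near many genes of this pathway. High-affinity hexokinases, lactate dehydrogenase A and the monocarboxylate transporter Slc16a1 are known as genes kept low in mature β-cells.

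The replicates of each mark and diet had been merged before peaks were called, so each group was represented by 1 peak list without a measure of replicate error. Diets could therefore not be tested against each other, and every difference between diets given here is a difference between 2 merged lists. The presence, width and height of peaks were read for each gene, and the peaks at the members' own promoters, joined over the diets, each overlapped an annotated exon of the gene. A peak was at a promoter when it reached within 1000 bp of the start of any protein-coding transcript (GENCODE mouse release 21, GRCm38). Its width was taken in bp, and its height as the pileup over background, the mean number of fragments per base of the peak divided by the number that an even spread of all kept fragments over the effective genome would give. Values for the diets are given in the order RD, HFD and HFD-O304 unless stated otherwise. A share of islet cell types that shifted with diet and a change of the mark within each cell cannot be told apart in whole islets.

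The H3K27Ac lists held between 16314 (RD) and 21674 (HFD) peaks from 83773042 to 95218072 fragments, and the H3K27Me3 lists between 15438 (HFD) and 22049 (HFD-O304) peaks from 54166902 to 74870300 fragments. The lowest pileup over background that was called was 2.40, 2.26 and 2.37 for acetylation and 2.74, 3.10 and 2.97 for methylation. The HFD list, with the lowest limit for acetylation, also had the widest peaks at promoters (median 1112 bp, against 991 bp in RD and 1091 bp in HFD-O304), and the part of the limit in the widths was not tested. The labelled tissue was checked by promoter H3K27Ac: 7, 8 and 7 of 10 islet endocrine markers carried a peak, whereas 0 of 5 acinar, 0 of 4 endothelial and 0 of 4 macrophage and leukocyte markers did so in any diet. Of the 4 duct markers 1, 1 and 2 carried a peak, as did 1 of 4 markers of other tissues, and the hormone genes Gcg and Sst carried none.

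All genes except Hk2 carried H3K27Ac at the promoter in all 3 diets, and Hk2 carried H3K27Me3. The count for H3K27Ac was 9 of 10 in each diet, against 46.8%, 52.7% and 52.1% of all protein-coding genes, and 45.1% of them had a peak in all 3 diets. H3K27Me3 at the promoter was called for 1 of 10 genes in each diet, against 7.63%, 9.49% and 10.1% of all genes, and 5.99% had one in all 3. None of the 10 promoters carried both marks in any diet. When peaks with a −log10 q below 5 were left out, 6, 7 and 6 of the 10 genes had H3K27Ac, against 31%, 41.2% and 39.4% of all genes. H3K27Me3 at Hk2 was then left in HFD alone, and 1.33%, 2.54% and 2.48% of all genes still had it.

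Hif1a, the regulatory member of the group, had the steadiest peak. Its H3K27Ac peak was 1432, 1450 and 1567 bp wide across the diets, with a pileup over background of 3.66, 3.65 and 3.68. The highest of these heights was 1.007 times the lowest, the narrowest span of the 9 genes. The peak (chr12:73907300-73908866 over the 3 diets) was centred 6.71 kb inside the GENCODE record of the gene, whose record begins at a distal start site without a peak. It overlapped the exon that follows the start site at chr12:73907904. The bases directly upstream of the RefSeq start are shown because they hold 3 matches of the cores in a promoter marked in every diet (chr12:73907617-73907866, plus strand, GRCm38, capitals mark the cores).
Hif1a: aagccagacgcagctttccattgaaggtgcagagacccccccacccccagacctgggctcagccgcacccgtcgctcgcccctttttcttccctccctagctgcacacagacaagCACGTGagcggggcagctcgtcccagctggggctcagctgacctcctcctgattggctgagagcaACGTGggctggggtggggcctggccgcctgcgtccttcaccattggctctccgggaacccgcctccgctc
The first pair of matches, at -135 and -134 from the start, overlap on opposite strands as the palindrome in capitals, and the other match stands at -70.

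Slc2a1 encodes GLUT1, the transporter that brings glucose into most cells at rest. The gene (peak at chr4:119108472-119109419 over the diets) carried the narrowest H3K27Ac peak of the 9 in RD and in HFD-O304, at 575 bp and 858 bp, and a peak of 948 bp in HFD. The heights were 3.55, 3.10 and 3.34. RD thus had the narrowest and highest peak and HFD the widest and lowest. Among all genes with a peak, the width stood at percentiles 21.9, 40.2 and 35.9. A further H3K27Ac peak of 745 bp was called 2.81 kb upstream of the nearest start site in HFD-O304 (chr4:119105528-119106272, outside any protein-coding gene), with a pileup over background of 2.79 and a −log10 q of 4.22. This region had no peak in RD or HFD. The upstream promoter bases outside annotated exons are given here with 1 core (chr4:119108495-119108710, plus strand).
Slc2a1: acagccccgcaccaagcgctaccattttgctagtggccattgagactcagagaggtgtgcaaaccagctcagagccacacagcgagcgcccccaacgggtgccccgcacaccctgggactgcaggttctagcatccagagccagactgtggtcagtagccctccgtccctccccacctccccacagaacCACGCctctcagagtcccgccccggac
The match is a GCGTG on the opposite strand at -61, and an ACGTG at -36 runs into bases that GENCODE annotates as exon.

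Hk2 encodes hexokinase 2, a high-affinity enzyme of muscle and many tumours, and was the only gene of the 10 with H3K27Me3 at its promoter. No H3K27Ac peak was present within the gene or 20 kb on either side in any diet. The H3K27Me3 peak measured 294 bp in RD (chr6:82773686-82773979), 2033 bp in HFD (chr6:82772777-82774809) and 1993 bp in HFD-O304 (chr6:82772718-82774710). Its pileup over background was 3.08, 3.89 and 3.27, with −log10 q of 3.50, 5.04 and 3.17. The RD peak lay wholly downstream of the start site, whereas those of HFD and HFD-O304 crossed it and reached 1678 and 1737 bp into the gene. Among all genes with H3K27Me3 at the promoter the width stood at percentiles 11.2, 69.6 and 72.3, where the median widths were 832, 1239 and 1142 bp. The RD list had the most kept fragments of the 3 H3K27Me3 lists and the lowest calling limit, while its peak at Hk2 was the shortest. Duplicates made up 45.7%, 55.0% and 56.9% of the sequenced fragments, and their part in this difference was not tested. The promoter is printed because it is the 1 member sequence under H3K27Me3, and the peaks of HFD and HFD-O304 cover the whole stretch (chr6:82774455-82774704, minus strand).
Hk2: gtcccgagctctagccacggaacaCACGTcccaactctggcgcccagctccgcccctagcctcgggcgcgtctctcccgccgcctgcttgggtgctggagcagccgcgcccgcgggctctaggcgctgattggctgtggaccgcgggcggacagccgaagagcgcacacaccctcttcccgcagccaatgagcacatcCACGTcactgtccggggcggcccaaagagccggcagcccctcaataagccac
Both cores are ACGTG on the opposite strand, at -226 and -52. Hk2 thus held a core, as did 6 of the 9 acetylated genes, and its GC content of 67.3% over 300 bases around the start was the second highest of the 10 after Hif1a (69.3%).

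Pfkl and Pfkp encode the liver and platelet forms of phosphofructokinase, the committed and most regulated step of glycolysis. The Pfkl peak (chr10:78008898-78010144 over the diets) was 874, 935 and 1134 bp wide, with a pileup over background of 3.52, 3.88 and 3.67, and the HFD value was the highest H3K27Ac height of any member in any diet. Pfkp had a wider and lower peak (chr13:6647040-6649240), of 1486, 2148 and 2109 bp, with heights of 2.79, 2.58 and 2.75. The paralogues thus stood on opposite sides of the all-gene median height in every diet. Pfkp carried 4 GCGTG matches within its 300-base window, the most of any member, 3 of them in the exon-free stretch (chr13:6648778-6649021, minus strand).
Pfkp: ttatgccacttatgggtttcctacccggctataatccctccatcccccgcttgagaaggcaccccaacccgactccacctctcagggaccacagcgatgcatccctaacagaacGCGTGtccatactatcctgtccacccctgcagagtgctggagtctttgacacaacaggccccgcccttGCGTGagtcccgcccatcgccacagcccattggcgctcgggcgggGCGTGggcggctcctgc
They stand at -136, -68 and -23, all in the direction of the gene. The RD peak of Pfkp began downstream of the RefSeq start and left this stretch outside, while the HFD and HFD-O304 peaks reached 416 and 469 bp upstream and covered it. Pfkl held 1 core, a GCGTG at -99.

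Aldoa and Tpi1, encoding aldolase A and triosephosphate isomerase, act in succession to give the pair of interchangeable triose phosphates. Aldoa carried the widest peak of the 9 genes (chr7:126796912-126800961), of 2627, 3483 and 4050 bp, which placed it at percentiles 94.8, 96.1 and 97.4 of all genes with a peak. Its height was 3.38, 3.36 and 3.55. The peak also overlapped the promoter of Fam57b, so the acetylation there cannot be assigned to Aldoa alone. A distinct GENCODE record of the same symbol starts further upstream, at chr7:126809108, and had a peak of its own of 495, 661 and 521 bp, with heights of 2.84, 2.41 and 2.77.

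Of the 9 acetylated genes, Tpi1 showed the largest differences in H3K27Ac between diets. Its peak (chr6:124812416-124814610 over the diets) measured 904, 1938 and 1663 bp, a ratio of 2.14 between HFD and RD and of 1.84 between HFD-O304 and RD. The pileup over background was 3.40, 2.90 and 2.69, and HFD-O304 stood at 0.791 times RD. The difference in width lay on the gene side. In RD the peak reached 452 bp on either side of the start, whereas in HFD it reached 195 bp upstream and 1743 bp downstream and in HFD-O304 332 and 1331 bp.

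Gapdh, encoding the NAD-linked dehydrogenase of the pathway, is commonly used as a reference transcript. The H3K27Ac peak there (chr6:125164079-125167415) was 2077, 3337 and 3246 bp wide, the second widest after Aldoa in every diet. The heights were 2.84, 3.08 and 3.12, so the wider peaks of HFD and HFD-O304 were also the higher ones, by a ratio of at most 1.10. The HFD peak extended 1642 bp upstream and 1695 bp downstream of the RefSeq start, against 1122 and 955 bp in RD. In HFD and HFD-O304 Gapdh had the most even extension around the start of the 9 genes, and its upstream bases hold 2 GCGTG matches in opposite directions (chr6:125165774-125166023, minus strand).
Gapdh: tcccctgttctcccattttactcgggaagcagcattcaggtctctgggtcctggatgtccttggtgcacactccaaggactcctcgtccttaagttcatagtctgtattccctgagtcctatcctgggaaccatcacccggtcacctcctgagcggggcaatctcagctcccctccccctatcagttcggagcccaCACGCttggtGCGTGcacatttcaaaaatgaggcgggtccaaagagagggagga
They stand at -54 and -44, and all 3 diets had the whole stretch under the peak.

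Eno1 and Pkm encode α-enolase and the muscle-type pyruvate kinase, which complete the chain. Eno1 (chr4:150236464-150238131) had a peak of 1307, 1585 and 1102 bp, and was the 1 gene of the 9 whose peak was narrower in HFD-O304 than in RD. Its height was 3.40, 3.71 and 3.73. The Pkm peak (chr9:59655966-59657534) was 859, 996 and 1409 bp wide, with heights of 2.84, 2.64 and 2.75. It was placed differently in each list, since 610 bp lay upstream and 249 bp downstream of the RefSeq start in RD, 37 and 959 bp in HFD, and 490 and 919 bp in HFD-O304. Eno1 held a GCGTG match at -230 and another at 10 bases past the start, and Pkm held neither core. No core was found for Tpi1 or Aldoa in the 300-base window either. Each window was taken at the first RefSeq start listed for the gene.

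**Figure D1:**
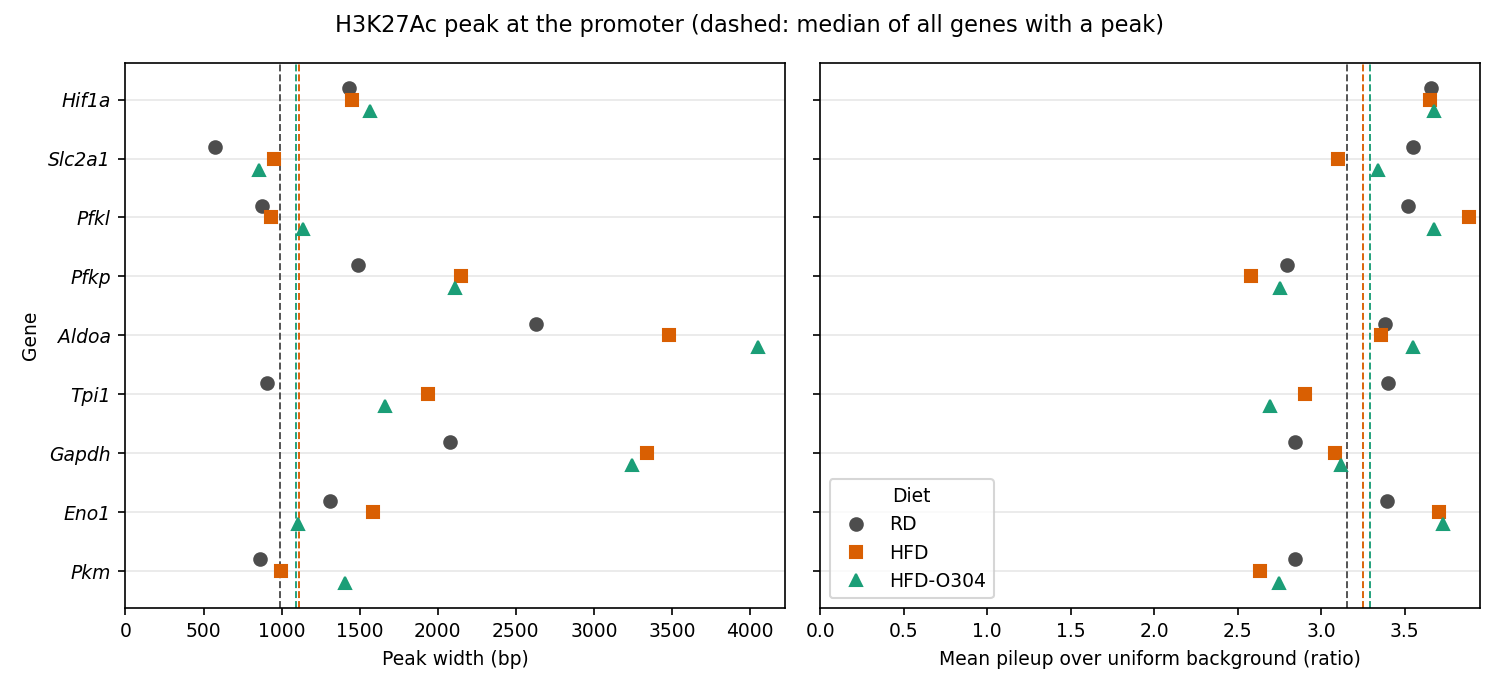
Width (left, bp) and mean pileup over uniform background (right, ratio) of the H3K27Ac peak at the promoter of the 9 genes that carried one, with 1 point per diet and dashed lines for the median of all genes with a peak. Aldoa and Gapdh lie far to the right in width, RD points are the leftmost for 8 of 9 genes, and heights of all genes stay between 2.58 and 3.88.

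Over the 9 genes the median width was 1307, 1585 and 1567 bp, against 991, 1112 and 1091 bp over all genes with a peak at the promoter. The median pileup over background was 3.39, 3.10 and 3.34, against 3.16, 3.25 and 3.29. The median width of the members thus lay above that of all acetylated promoters in each list, with 5, 6 and 8 of the 9 genes above it, while the median height lay above in RD and HFD-O304 and below in HFD. These orders rest in part on how the start sites were taken. With the second Aldoa record in place of the first, the median width in RD was 904 bp and below that of all genes, and the median height in HFD-O304 was 3.12 and below as well. With the 5′ end of each gene record as the 1 start, which leaves out Hif1a, the median height in HFD-O304 was 3.23, against 3.31 over all genes. Widths of the 9 genes ranged from 575 to 2627 bp in RD, from 935 to 3483 bp in HFD and from 858 to 4050 bp in HFD-O304. Differences between genes were larger than those between diets, which spanned from 1.09 times for Hif1a to 2.14 times for Tpi1.

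All 9 peaks were wider in HFD than in RD, as were 71.4% of all genes with a peak in both. A peak at least 25% wider in HFD was found for 5 of 9 genes (Slc2a1, Pfkp, Aldoa, Tpi1 and Gapdh), against 37.8% of all genes, and 0 of 9 were wider by as much in RD, against 8.98%. The median ratio was 1.33 over the members and 1.14 over all genes. The list of HFD was the deeper of the pair and had the lower limit. In height, 0 of 9 genes were 25% higher in HFD, against 6.52% of all genes, and 0 of 9 were 25% higher in RD, against 0.791%. The median ratio of height was 0.993 over the members and 1.05 over all genes.

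The lists of HFD-O304 and RD were close in depth, with 84694188 and 83773042 fragments. The HFD-O304 list still held more peaks (20305 against 16314) and had a lower limit (2.37 against 2.40), and the part of these in the widths was not tested. In this pair 7 of 9 genes were at least 25% wider in HFD-O304 (Slc2a1, Pfkl, Pfkp, Aldoa, Tpi1, Gapdh and Pkm), against 35.2% of all genes. None of the 9 was wider by as much in RD, against 11.1%. With the second Aldoa record, of 495 bp in RD and 521 bp in HFD-O304, Aldoa would not be among those wider in HFD-O304. The median ratio of width was 1.49 over the members and 1.11 over all genes, and 8 of 9 were above 1, against 67.7%. No member was 25% higher over background in HFD-O304, against 7.76% of all genes, and 1 of 9, Tpi1, was at least 25% higher in RD, against 0.726%. RD is shared by this pair and the former, so their counts are not independent. Where the −log10 q had to reach 5 in both lists, 3 of 6 genes were 25% wider in HFD than in RD, against 33.2% of all genes, and 3 of 5 in HFD-O304 than in RD, against 30%. None of these was 25% narrower than in RD, against 7.82% and 9.85% of all genes.

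Between HFD-O304 and HFD 4 of 9 genes were wider in HFD-O304, against 46.3% of all genes. Pkm was 1.42 times wider in HFD-O304, 1 of 9 against 17.8% of all genes, and Eno1 was narrower at 0.695 times, 1 of 9 against 22.1%. The median ratio of width was 0.982 over the members and 0.983 over all genes. No member differed by 25% in height, against 2.03% of all genes higher and 1.28% lower in HFD-O304. At 50% in place of 25%, 3 of 9 genes were wider in HFD than in RD, against 22.5% of all genes. In HFD-O304 4 of 9 were wider than in RD, against 21.2%, and Aldoa was among them only with the record used. In both comparisons 0 of 9 were narrower than in RD by as much, against 4.46% and 5.81%. Between HFD-O304 and HFD 0 of 9 were wider by as much, against 9.16%, and 0 of 9 narrower, against 12%. With a −log10 q of at least 5 in both of these lists, 0 of 6 were 25% wider in HFD-O304, against 14.9%, and 1 of 6, Eno1, narrower, against 19.3%.

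**Figure D2:**
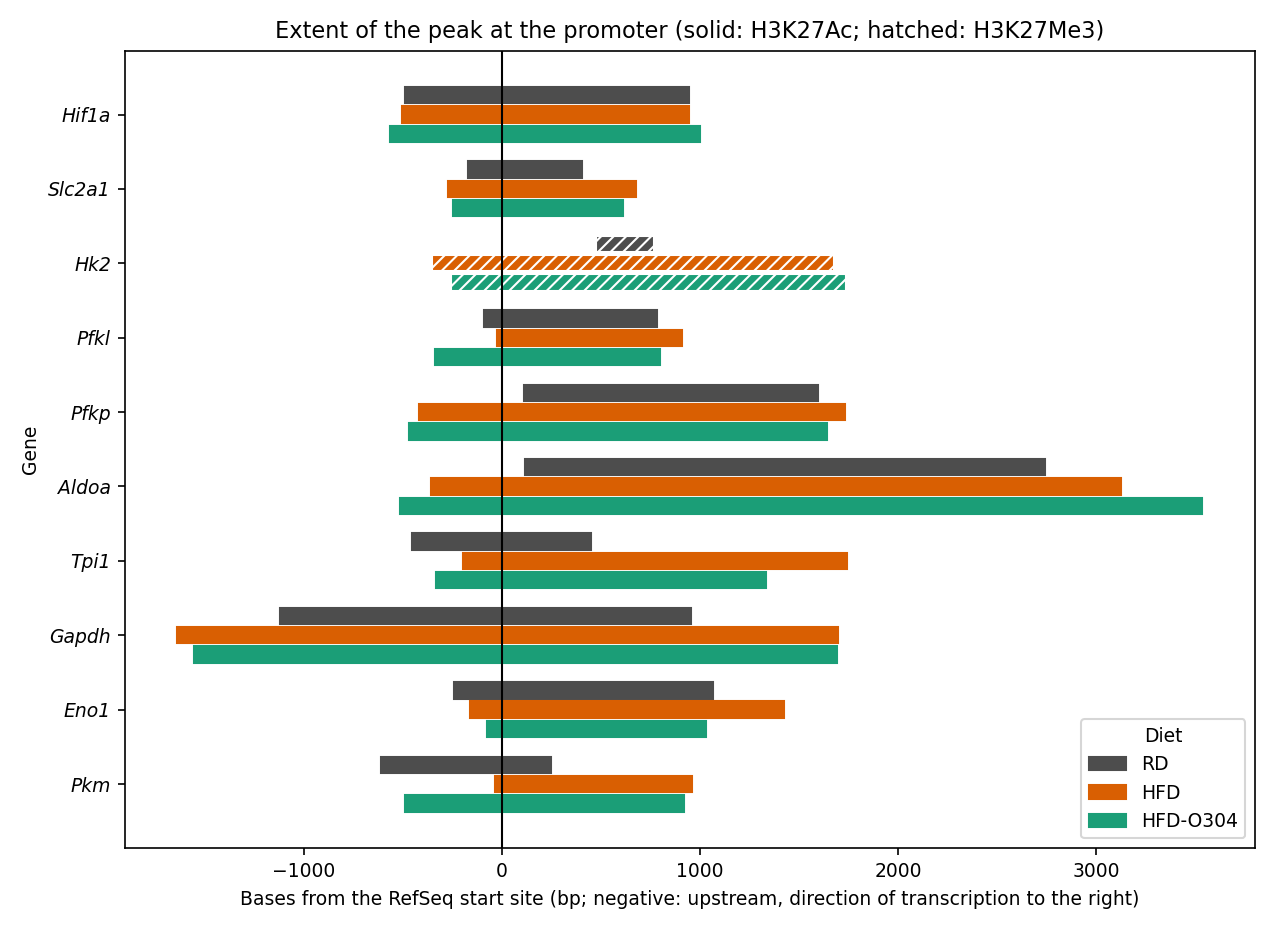
Extent of the peak at each promoter in bases from the RefSeq start site, with the direction of transcription to the right and 1 bar per diet (solid for H3K27Ac, hatched for H3K27Me3). HFD bars reach 1678 bp into Hk2 and 1743 bp into Tpi1, and the RD bars of Hk2, Pfkp and Aldoa begin past the RefSeq start used.

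Acetylated bases lay mostly on the gene side of the start. In HFD and in HFD-O304 all 9 genes had more peak bases downstream than upstream of the RefSeq start. Among all genes with an entry and an H3K27Ac peak at that start, 74.4% and 74.5% did so. In RD 6 of 9 genes did so, against 73.1%. The genes that departed from this in RD were Tpi1 with equal sides, Gapdh with 46.0% downstream and Pkm with 29.0%. Start sites were taken from the RefSeq promoter table of GRCm38.p6, in which all 10 genes had an entry. Where several starts were listed, as for Aldoa (3), Eno1 (3) and Pkm (2), the first was used.

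The promoter windows of the 10 genes, 250 bases before to 50 after the start, were rich in GC. The median GC content was 63.5%, against 52.7% over the 27025 promoters of the table, and the median ratio of observed to expected CpG was 0.652 against 0.388. Genes with H3K27Ac in all 3 diets and no H3K27Me3 had medians of 62.3% and 0.807, those with H3K27Me3 in all 3 diets and no H3K27Ac had 61.7% and 0.645, and those with neither mark had 47.3% and 0.193. Aldoa was the exception among the members, with 52.7% GC and no CpG, at the first of its 3 listed RefSeq starts. Its RD peak lay wholly downstream of that start and held other start sites of the gene. The Aldoa values therefore describe 1 start and not the whole acetylated promoter. ACGTG, on either strand, was found in 4 of the 10 windows (Hif1a, Slc2a1, Hk2 and Gapdh) and in 19.7% of all promoters. GCGTG, on either strand, was found in 5 of the 10 (Slc2a1, Pfkl, Pfkp, Gapdh and Eno1) and in 32.5% of all. Either core was present in 7 of the 10 and in 43.8% of all promoters, but in 67.6% of the promoters of the first class above. In that class ACGTG was found in 27.5% and GCGTG in 56.1%. A match is a match of letters and does not show that a factor binds there.

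In the gene bodies and 20 kb on each side, 0.666 Mb in all, H3K27Ac peaks numbered 21, 25 and 27. They covered 22592, 36165 and 31096 bp, or 3.39%, 5.43% and 4.67% of these windows, against 0.962%, 1.38% and 1.29% of the effective genome. The windows were built on genes and hold promoters by construction, so the genome is not a matched comparison. The same windows around all other genes were not read. Joined across the diets, the peaks formed 27 regions. Each of the 9 acetylated genes had 1 region at its own promoter, present in all 3 diets, and 9 further regions were promoters of neighbouring genes, of which 7 were present in all 3 diets. These neighbours add to the covered bases of short genes such as Aldoa and Tpi1.

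**Figure D3:**
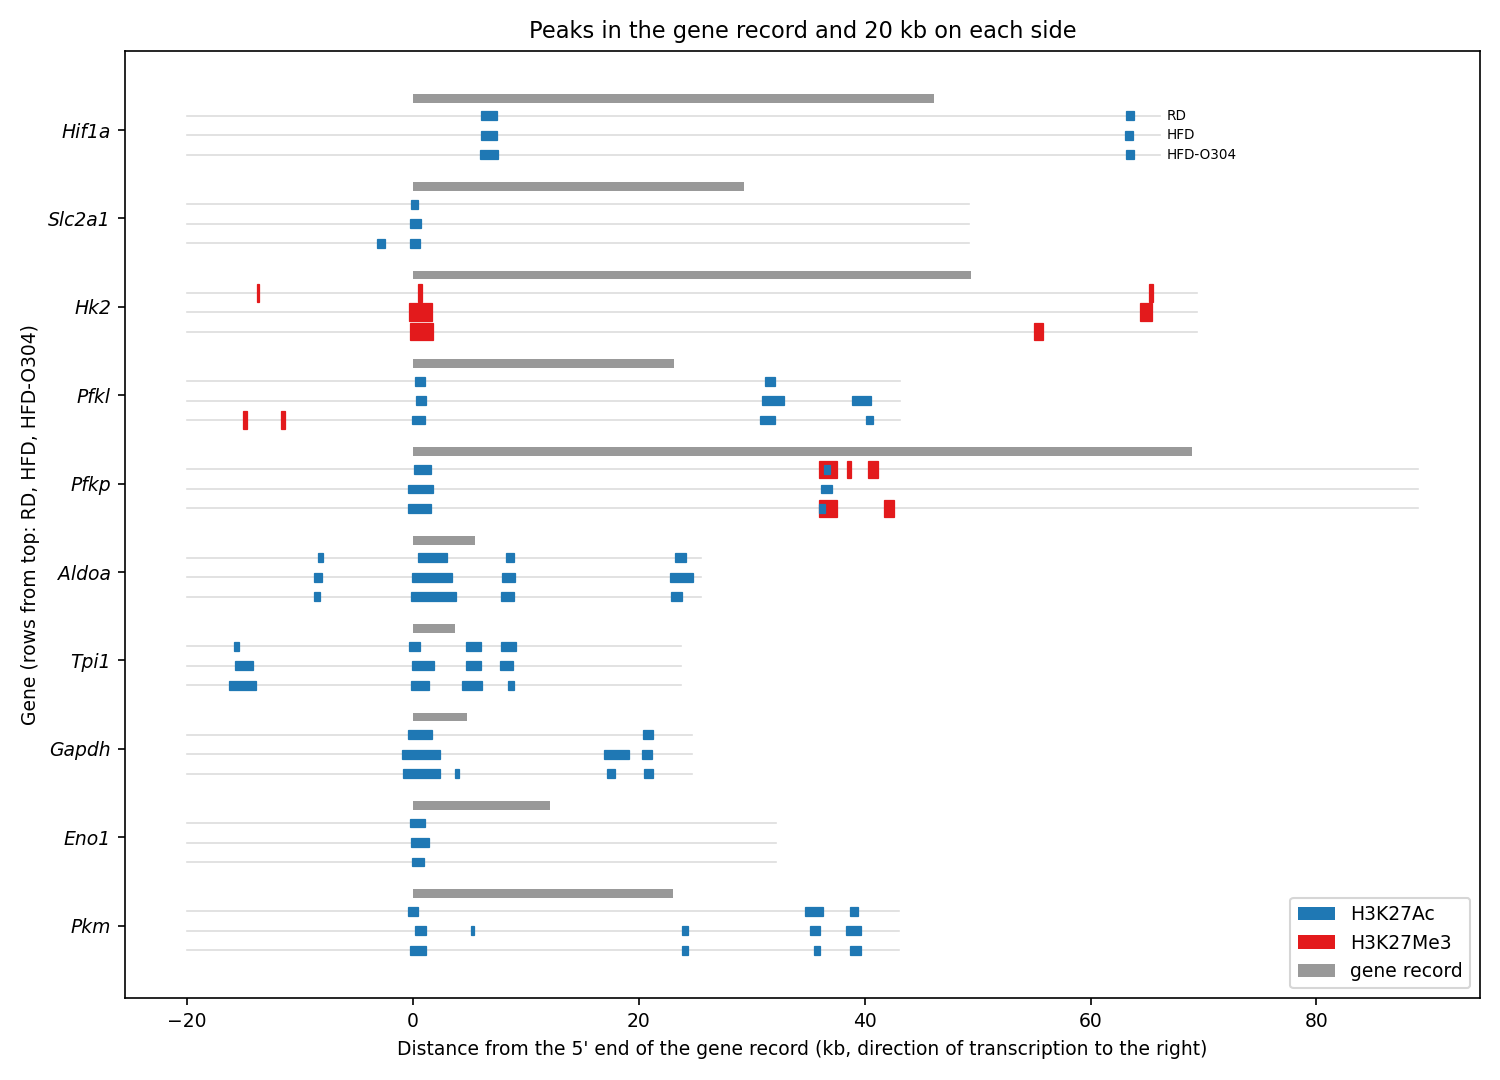
Peaks in each gene record and 20 kb on either side, in kb from the 5′ end of the record, with rows from the top for RD, HFD and HFD-O304 (blue for H3K27Ac, red for H3K27Me3, grey for the gene record). Hk2 shows H3K27Me3 and no H3K27Ac, the mixed block inside Pfkp lies on repeats, and the pair of HFD-O304 peaks upstream of Tpi1 is drawn as 1 span.

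Of the 27 regions, 21 were present in all 3 diets and 6 were not. The matching shares over all regions of the lists were not computed, for these or for the neighbouring promoters. The Slc2a1 upstream peak of HFD-O304 is given above. In the Gapdh window, a region inside the neighbouring gene Iffo1 (chr6:125147363-125149547) had a peak of 2185 bp in HFD and of 696 bp in HFD-O304 and none in RD, with a pileup over background of 2.43 and 2.78. A Gapdh peak of 353 bp near the end of the gene was called in HFD-O304 alone at 2.47, and 77.1% of it was repeat-masked. At Pkm an intronic peak of 272 bp (chr9:59661469-59661740) was present in HFD alone, at 2.42, and the promoter of the neighbour Gramd2 carried a peak in HFD and HFD-O304, at 3.09 and 3.04. The promoter of Trpm2, downstream of Pfkl, was marked in HFD at 2.58 and in HFD-O304 at 2.38. All of these values lay below the median over acetylated promoters of their list (3.25 in HFD and 3.29 in HFD-O304). At Hif1a the set of peaks was the same in each diet, and the promoter of the neighbour Snapc1 stood at 3.64, 3.66 and 4.59.

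H3K27Me3 peaks in these windows numbered 6, 2 and 6, and they lay at Hk2, Pfkl and Pfkp. They covered 3702, 3036 and 5977 bp, or 0.556%, 0.456% and 0.897% of the windows, against 0.767%, 0.862% and 1.19% of the effective genome. As for acetylation, the genome is not a matched comparison for windows built on genes. Inside Pfkp, about 37 kb from the 5′ end of its record, an intronic block held H3K27Me3 in RD (chr13:6611190-6612814, 3.07) and HFD-O304 (3.48) and H3K27Ac in all 3 diets (2.53, 2.33 and 2.75). The marks overlapped there by 488 bp in RD and 527 bp in HFD-O304, the 1 place in the 10 loci where they did. The acetylated region was 96.1% repeat-masked and the H3K27Me3 regions of Pfkp between 93.4% and 99.2%, and the part of read placement in repeats was not tested. A pair of H3K27Me3 peaks upstream of Pfkl in HFD-O304 and a peak upstream of Hk2 in RD were wholly repeat-masked. Without peaks in regions, joined over the diets, of which at least 50% was repeat-masked, 2 H3K27Me3 peaks were left in each diet. All were at Hk2, covering 616, 3036 and 2819 bp. The farther of these in RD and HFD, downstream of Hk2, lay in a joined region that was 49.5% repeat-masked and thus close to that limit. That region was 1106 bp wide and the RD peak in it 322 bp, and the masked share of each peak was not computed.

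To place the 10 genes in their pathway, 60 further genes in 6 lists were read by the same rules. H3K27Ac was at the promoter of 39, 47 and 44 of the 60, against 46.8%, 52.7% and 52.1% of all genes, and H3K27Me3 at that of 9, 12 and 12, against 7.63%, 9.49% and 10.1%. All 39 genes acetylated in RD were acetylated in all 3 diets, which is near the 96.6% among all genes acetylated in RD. Presence differed between diets for 9 of the 60, against 10.2% of all genes, and 12 had no H3K27Ac peak, against 44.6%. Where the −log10 q had to reach 5, acetylation was left at 25, 32 and 34 of the 60, against 31%, 41.2% and 39.4% of all genes. Methylation was left at 0, 2 and 2 of the 60, against 1.33%, 2.54% and 2.48%.

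The marks differed between Hk2 and other hexokinase genes. Hk1, a high-affinity enzyme, carried both marks in every diet, overlapping by 653, 1269 and 837 bp, with H3K27Me3 at 3.07, 3.70 and 3.90. Hk2 had H3K27Me3 alone, and neither Hk3 nor Hkdc1 had a peak of either mark. Hk1 thus shared the H3K27Me3 of Hk2 without its lack of acetylation.

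The transporter Slc2a2, which encodes GLUT2, the main glucose transporter of rodent β-cells, had wide H3K27Ac at its promoter in HFD (4624 bp, 2.55) and HFD-O304 (4282 bp, 2.73) and none called in RD. Its heights lay below the median over acetylated promoters in both lists. Slc2a3, encoding the neuronal-type GLUT3, carried H3K27Me3 in all 3 diets (2.82, 3.98 and 3.40) and, in HFD and HFD-O304, H3K27Ac that overlapped it by 363 and 394 bp. Slc2a4, the insulin-regulated GLUT4, had an H3K27Me3 peak in HFD-O304 alone (462 bp, 3.26).

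Of the 16 other glycolytic enzymes, 8, 11 and 9 had H3K27Ac, against 46.8%, 52.7% and 52.1% of all genes. Presence differed between diets for 3 of the 16, against 10.2% of all genes. The 3 that differed were Aldoc (HFD alone, 2.29), Eno3 (HFD alone, 2.68) and Pklr (HFD at 2.58 and HFD-O304 at 2.77), isoforms best known from brain, muscle and liver in that order. Pgk1, on the X chromosome, encodes the ubiquitous phosphoglycerate kinase and had no called peak of either mark. The background was the same for all chromosomes, without allowance for the X of male mice, and the part of this at Pgk1 was not tested. Among the other X-linked list genes, Pdha1 had H3K27Ac in all 3 diets (2.754, 3.447 and 3.495), while Pfkfb1 and Pdk3 had no peak of either mark. Of the 5 genes of the fructose 2,6-bisphosphate system, 4 were acetylated in every diet, against 45.1% of all genes. Pfkfb3 also had an H3K27Me3 peak of 348 bp in RD.

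H3K27Me3 was at the promoter of 3, 4 and 4 of the 11 genes that act on pyruvate, against 7.63%, 9.49% and 10.1% of all genes. Ldha, encoding lactate dehydrogenase A, had no H3K27Ac and H3K27Me3 summing to 2130, 5925 and 9264 bp, with a pileup over background of 3.09, 3.56 and 3.59. Slc16a1, the lactate and pyruvate transporter MCT1, carried both marks in every diet, overlapping by 573, 797 and 918 bp. Slc16a3, or MCT4, had H3K27Me3 throughout (2.93, 3.53 and 3.50) and H3K27Ac in HFD-O304 alone (1581 bp, 2.49). Pdk4, a kinase that restrains pyruvate dehydrogenase, had short H3K27Me3 peaks in HFD and HFD-O304 (283 and 455 bp). The other members of this list, the mitochondrial pyruvate carriers Mpc1 and Mpc2 among them, had no H3K27Me3.

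**Figure D4:**
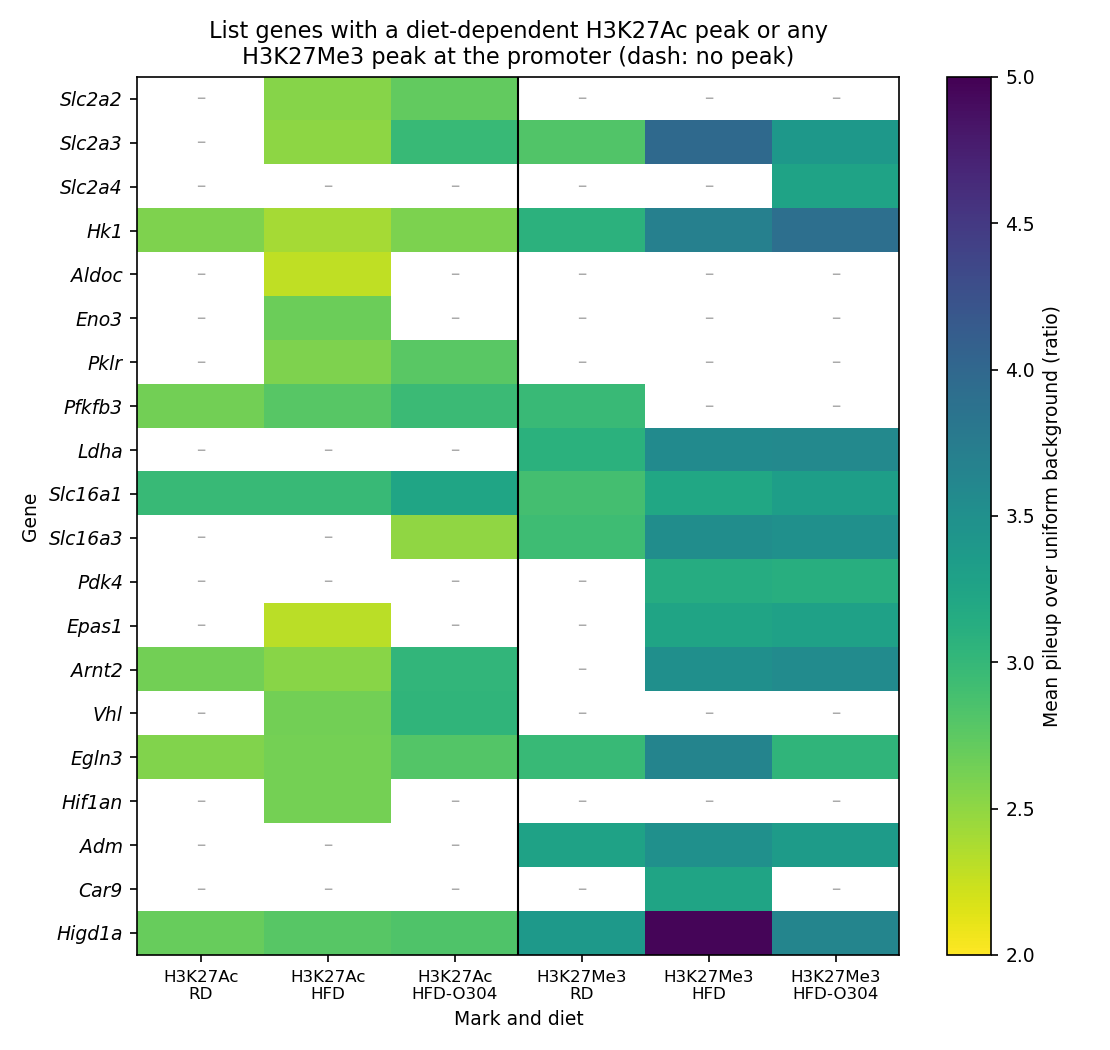
Mean pileup over uniform background (colour, ratio) of the peak at the promoter of 20 of the 60 list genes, those whose H3K27Ac presence differed between diets or that carried H3K27Me3, by mark and diet, with a dash for no peak. Hk1, Slc16a1, Egln3 and Higd1a are filled in all 6 columns, and Ldha and Adm in all those of H3K27Me3 and none of H3K27Ac.

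Of the 9 factors and regulators of the hypoxia response, 6, 9 and 7 carried H3K27Ac, against 46.8%, 52.7% and 52.1% of all genes. Presence differed between diets for 3 of the 9, against 10.2% of all genes. Epas1, encoding HIF-2α, had H3K27Ac in HFD alone (1190 bp, 2.31) and H3K27Me3 in HFD (895 bp, 3.25) and HFD-O304 (569 bp, 3.28). Vhl, encoding the subunit that sends HIF-α for degradation, had H3K27Ac in HFD (2.64) and HFD-O304 (3.04), and Hif1an, encoding the asparaginyl hydroxylase of HIF-α, in HFD alone (2.63). The promoter of the prolyl hydroxylase Egln3 had both marks in all 3 diets, overlapping by 260, 548 and 292 bp. Arnt2 was acetylated in every diet and had H3K27Me3 in HFD (3.50) and HFD-O304 (3.55) at another start site, with 39755 and 39646 bp between the marks. The 3 genes whose acetylation differed, Epas1, Vhl and Hif1an, thus stood below the median over acetylated promoters of their list.

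Of the 16 hypoxia targets, 14 carried H3K27Ac in each diet, against 46.8%, 52.7% and 52.1% of all genes. None differed between diets, where 10.2% of all genes did. The 2 without H3K27Ac, Adm and Car9, were marked by H3K27Me3, Adm in all 3 diets over 1454, 1734 and 4102 bp and Car9 in HFD alone over 1063 bp. Higd1a carried both marks throughout, and its H3K27Me3 in HFD was the highest of the list genes, at 4.96 against 3.37 in RD and 3.63 in HFD-O304. The marks overlapped there by 326, 703 and 859 bp.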

How the data were processed

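H3K27Ac and H3K27Me3 ChIP-seq of mouse islets was analysed from 6 deposited lists of peaks (1 for each mark in each diet), with samples grouped by their titles. According to the study's methods, the authors mapped 50-nt paired-end reads to GRCm38 with bowtie2, merged both replicates of a group and called broad peaks with MACS2, named as version 2.1.2 in the file headers. Per the file headers, the q cutoff was 0.01, no control was given and the background was uniform. The authors' files give for each peak a pileup (coverage signal in fragments per base), a −log10 q and a fold enrichment, the ratio of pileup plus 1 to background plus 1.

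Background was computed here as kept fragments times fragment length over the effective genome size of the headers. Peaks were joined to 22028 protein-coding genes of GENCODE mouse release 21 (start sites of protein-coding transcripts ± 1000 bp, minimum overlap 1 bp; gene record ± 20 kb) with Python 3.11.15, numpy 2.4.6 and pandas 2.3.3. Several peaks at a promoter were summed in width and averaged in height by width. Aldoa was taken as the GENCODE record that holds its RefSeq start sites. Widths or heights were called different from 25% upward, as the ratio of the larger to the smaller. The overlap code was tested on simulated peaks, and all 200 planted genes were recovered. Named list genes were those whose H3K27Ac presence at the promoter differed between diets or that had H3K27Me3 there. Hk3, Hkdc1, Pgk1, Pfkfb1, Pdk3, Pdha1, Mpc1 and Mpc2 were named after their values were seen. The 10 genes and the lists were chosen with earlier results of these data known. Promoter sequences are those of RefSeq, GRCm38.p6, shown outside annotated exons. Depth was 54166902 to 95218072 kept fragments per list. Alternatives changed the promoter window, start sites, q and fold limits, list size, overlap, joining of peaks, height measure and flank.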

Additional observations from a re-analysis of the deposited data

How the results depend on the processing

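No paired analysis was possible because each group was deposited as 1 merged list, which also prevented leaving out a replicate. Of 288 values computed under the alternatives for the counts, medians and covered bases, 238 stayed within 1.5 times the reported value. Of 302 values for single genes 299 did, but most of these alternatives could hardly change such a value. The q and fold limits keep a peak as it is or drop it, and dropped peaks were not counted. At a −log10 q of at least 5, 38 single-gene values were left, and 48 with the 5′ end of the gene record, against 54 at the common fold cutoff. The alternatives with repeat-masked peaks left out, the second Aldoa record and a ratio of 1.5 were chosen after seeing the data.

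With a −log10 q of at least 5, H3K27Me3 was at the promoter of 0 of the 10 genes in RD and 0 in HFD-O304, and of 0, 2 and 2 of the 60 list genes in RD, HFD and HFD-O304, and H3K27Ac at 25 list genes in RD. The same limit left 3 of 6 genes wider in HFD than in RD, 3 of 5 wider in HFD-O304 than in RD, 0 wider in HFD-O304 than in HFD and 0 lower over background in HFD-O304 than in RD. It left 11, 16 and 14 H3K27Ac peaks in the loci, over 12963 bp in RD and 19842 bp in HFD-O304, and 1, 1 and 0 H3K27Me3 peaks, over 229 bp in RD and 0 in HFD-O304. This limit leaves fewer peaks by construction. At a common fold cutoff 4 list genes had H3K27Me3 in RD.

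With a ratio of 1.5, 3 genes were wider in HFD and 4 in HFD-O304 than in RD, 0 were wider and 0 narrower in HFD-O304 than in HFD, and 0 were lower over background in HFD-O304 than in RD. With the second Aldoa record, 2 genes were narrower in HFD-O304 than in HFD, and 3 values of Aldoa itself moved, while the median width in RD (904 bp against 991 bp) and the median height in HFD-O304 (3.12 against 3.29) fell below those of all genes. The latter also lay below with the 5′ end of the gene record (3.23 against 3.31). Under the other alternatives run on these medians, the members lay on the same side of all genes as reported. The common fold cutoff and the joining of peaks left the members' own values unchanged, and the deposited fold left their widths unchanged. At a −log10 q of at least 5 the RD median widths were close, at 1106 bp against 1093 bp, with 3 of 6 genes above.

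Without flanks the loci held 10, 11 and 11 H3K27Ac peaks over 11089, 16160 and 15646 bp, and H3K27Me3 fell to 1 peak over 1678 bp in HFD and 3 peaks in HFD-O304. With flanks of 50 kb there were 34, 42 and 41 H3K27Ac peaks, 5 and 12 H3K27Me3 peaks in HFD and HFD-O304, and 5904, 6926 and 10740 bp of H3K27Me3. Without promoters of other genes, 16 and 17 H3K27Ac peaks were left in HFD and HFD-O304. Without repeat-masked peaks H3K27Me3 fell to 2 peaks over 616 bp in RD and 2 over 2819 bp in HFD-O304. These follow from the size of the window or the peaks removed.

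Taking the 5′ end of the gene record as the start removed Hif1a, leaving 8 of 10 genes with H3K27Ac in each diet. Depth limited what could be called: a mark below 2.26 to 2.40 times the background for H3K27Ac, or 2.74 to 3.10 for H3K27Me3, has no peak, so a missing peak does not show that the mark is absent.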
